A study of Mus musculus with 18 samples.

Results

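Macrophages are phagocytes that live in every part of the heart muscle. A resident population is seeded before birth and renews itself in place, and it carries the receptors Lyve1, Timd4, Folr2, Mrc1 and Cd163. Circulating monocytes that express the chemokine receptor Ccr2 enter the injured or pressure-loaded heart and can also become macrophages. Both kinds depend on the receptor Csf1r, whose ligands Csf1 and Il34 keep them alive. The 10 transcripts examined here, Csf1r, Cd68, Adgre1, Lyve1, Timd4, Mrc1, Folr2, Cd163, C1qa and Lyz2, mark these cells. They were taken by gene symbol from the 51435 gene identifiers of the deposited tables, and all 10 were found in all 18 libraries.

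The libraries came from poly(A) RNA of the left ventricle of 9 WT mice and 9 WWP2Mut/Mut mice, a line with a CRISPR deletion in exon 2 of Wwp2 on a C57BL/6J background. WWP2Mut/Mut mice were bred from heterozygotes, and WT littermates served as controls. Wwp2 encodes an E3 ubiquitin ligase, and the deletion affects its full-length and N-terminal isoforms. Mice of both genotypes received AngII, a vasoconstrictor peptide used to load the heart, at 500 ng/kg/min for 28 days from 8 weeks of age, so no library shows the heart without AngII. The comparison asks whether macrophage transcripts differ between the genotypes in the AngII-treated ventricle.

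Library totals were 24566994 to 37451087 counts, and each of the 4 lanes held mice of both genotypes. Wwp2 was 3.83 to 6.01 TPM in WT mice and 1.19 to 3.00 TPM in WWP2Mut/Mut mice, without overlap (log2 fold change in counts of -1.40). TPM is a level scaled to library size and transcript length. The tissue label held: 6 cardiomyocyte genes, the ventricular light chain gene Myl2 among them, summed to 34824 to 46860 TPM per mouse. Some libraries stood apart. The atrial light chain Myl7 exceeded 40 TPM in 5 mice (WT 43-3, 45-1 and 84-2, WWP2Mut/Mut 22-3 and 8-2). The 12 liver transcripts listed as hepatocyte markers summed to 5.68 to 403 TPM in WT mice (median 93.0) and 6.59 to 74.1 TPM in WWP2Mut/Mut mice (median 23.9). The recorded RNA concentration was 1.68 ng/µl in WT 43-3, far below the 88.6 to 320.9 ng/µl of the others. The sources used here do not say whether this low value is an entry error, and it entered the fits below as recorded, as a covariate.

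The levels of the 10 markers spanned a wide range (means over 18 mice ± SD). Lyz2, which encodes the bacteriolytic enzyme lysozyme, led at 159 ± 34.9 TPM. C1qa, a chain of complement C1q, followed at 57.2 ± 7.43 TPM. The folate receptor gene Folr2 was at 12.6 ± 2.43 TPM, above Csf1r at 9.25 ± 1.67 TPM and the lysosomal glycoprotein gene Cd68 at 7.51 ± 1.16 TPM. Below these lay Lyve1 (4.68 ± 1.68 TPM), Mrc1 (4.65 ± 0.816 TPM), Adgre1 (2.78 ± 0.841 TPM), Cd163 (2.48 ± 0.841 TPM) and, lowest, Timd4 at 0.726 ± 0.139 TPM.

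Most neighbours in this order differed within mice. Lyz2 exceeded C1qa, C1qa exceeded Folr2, Folr2 exceeded Csf1r, Mrc1 exceeded Adgre1 and Cd163 exceeded Timd4 in 18 of 18 mice (two-sided exact sign-flip permutation test of the log2 ratio, p = 7.63e-06 each, the smallest that 18 mice allow). Csf1r exceeded Cd68 in 17 of 18 mice (exact permutation p = 0.000183) and Cd68 exceeded Lyve1 in 16 of 18 (exact permutation p = 6.1e-05). Lyve1 and Mrc1 could not be ordered, with Lyve1 higher in 9 of 18 mice (exact permutation p = 0.651), nor could Adgre1 and Cd163, with Adgre1 higher in 11 of 18 (exact permutation p = 0.0966). The spread between mice was unequal: the highest mouse was 3.78 times the lowest for Cd163, 3.64 times for Lyve1 and 3.12 times for Adgre1, but 1.48 times for C1qa.

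**Figure D1:**
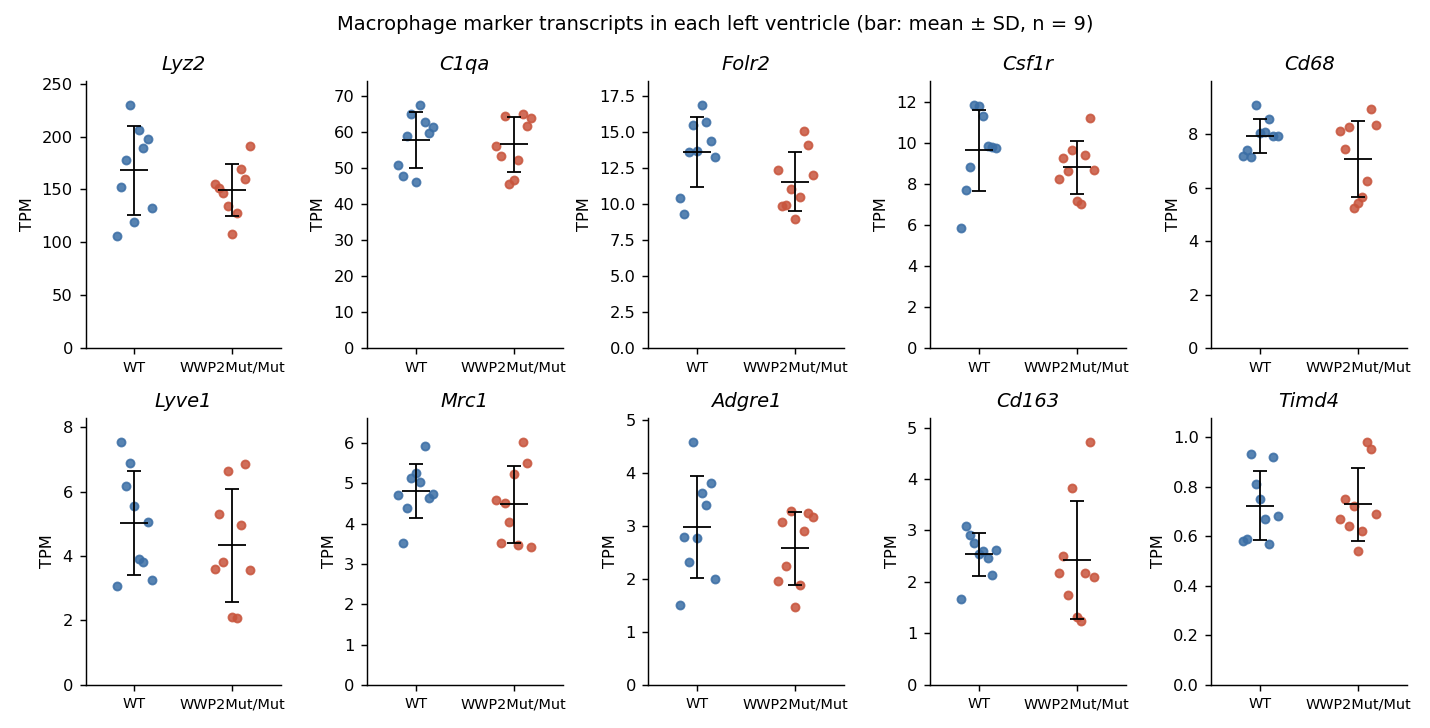
TPM (vertical axes, from 0) of the 10 markers in order of mean level. Each point is a mouse, and bars give the mean ± SD of 9 WT and 9 WWP2Mut/Mut mice. The genotypes overlap in every panel, and Lyve1, Adgre1 and Cd163 have a wide spread between mice.

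None of the 10 markers passed the genotype test. With edgeR's quasi-likelihood test on counts, adjusted by Benjamini-Hochberg over 24804 genes, 0 of 10 were called and 0 of 10 had an unadjusted p under 0.05. Over all genes, 0.00403% were called (1 gene, Wwp2) and 3.66% had an unadjusted p under 0.05. DESeq2 also gave 0 of 10 by both criteria, against 0.00403% and 2.41% of all genes. limma on log2(TPM + 1) called 0 of 10, against 0.00806% of all genes, and gave 2 of 10 (Cd68 and Folr2, both lower in WWP2Mut/Mut mice) an unadjusted p under 0.05, against 4.57%. The median log2 fold change of the 10 markers was -0.05 in the edgeR fit, and that of all genes was -0.01. In TPM most genes were lower in WWP2Mut/Mut mice: the mean was lower for 9 of the 10 markers and for 75.4% of the 24804 genes. A bulk library cannot tell fewer macrophages from less RNA per macrophage.

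Csf1r encodes the receptor for the growth factors Csf1 and Il34 (GRCm38 chromosome 18, 61100598 to 61132149; it overlaps the gene Hmgxb3 on the other strand). Its lowest, median and highest values were 5.86, 9.84 and 11.86 TPM in WT mice and 7.03, 8.71 and 11.22 TPM in WWP2Mut/Mut mice. The range of WWP2Mut/Mut mice lay within that of WT mice. The log2 fold change in counts, WWP2Mut/Mut over WT, was -0.00, with a 95% interval from -0.26 to 0.25 (edgeR, adjusted p = 1.00).

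Cd68 (chromosome 11, 69664213 to 69666153) ranged from 7.15 to 9.09 TPM in WT mice, median 7.95, and from 5.25 to 8.94 TPM in WWP2Mut/Mut mice, median 7.47. In WWP2Mut/Mut mice, 4 values lay below every WT mouse. The difference in mean TPM nonetheless did not pass (two-sided exact permutation test, p = 0.12). The log2 fold change in counts was -0.01 (95% interval -0.26 to 0.24). Adgre1 (chromosome 17, 57358691 to 57483527) encodes the adhesion receptor known as F4/80. Its lowest, median and highest values were 1.5, 2.78 and 4.58 TPM in WT mice and 1.47, 2.91 and 3.27 TPM in WWP2Mut/Mut mice. The 4 highest values were from WT mice, while the medians went the other way, and the log2 fold change in counts was -0.09 (95% interval -0.46 to 0.29).

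Among the resident markers, Lyve1 and Cd163 had the most negative differences in the fit with RNA concentration and lane as covariates. Lyve1 (chromosome 7, 110850607 to 110863239) encodes a hyaluronan receptor that lymphatic endothelium also carries. It ranged from 3.08 to 7.54 TPM in WT mice, median 5.05, and from 2.07 to 6.87 TPM in WWP2Mut/Mut mice, median 3.82, and the ranges overlapped over most of their length. Its log2 fold change in counts was -0.24 (95% interval -0.66 to 0.19, edgeR adjusted p = 1.00). It was -0.02 with genotype alone and -0.03 with lane and genotype, and it ran from -0.36 (without WWP2Mut/Mut 24-3) to -0.07 (without WWP2Mut/Mut 53-1) with 1 mouse left out.

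Cd163 (chromosome 6, 124304656 to 124330527) encodes the scavenger receptor for haptoglobin-haemoglobin complexes. WT mice lay close together, from 1.66 to 3.09 TPM with a median of 2.60. WWP2Mut/Mut mice were spread on both sides of them, from 1.25 to 4.72 TPM with a median of 2.17. The log2 fold change in counts was -0.30 (95% interval -0.73 to 0.13, edgeR adjusted p = 1.00). This direction depended on the covariates, since the fit with genotype alone gave 0.06 and the fit with lane and genotype, which leaves out RNA concentration only, gave 0.05. RNA concentration had a median of 98.3 ng/µl in WT mice and 187.4 ng/µl in WWP2Mut/Mut mice. Without WT 43-3, the mouse with the low recorded concentration, the value with all covariates was -0.29.

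Folr2 (chromosome 7, 101839988 to 101857194; it overlaps an antisense gene and a pseudogene) encodes a folate receptor of resident macrophages. It ranged from 9.31 to 16.85 TPM in WT mice, median 13.66, and from 8.95 to 15.04 TPM in WWP2Mut/Mut mice, median 11.06. The mean was lower in WWP2Mut/Mut mice in all 4 lanes, by 0.415 to 3.24 TPM. The exact permutation test over 18 mice gave p = 0.0671 in TPM and 0.577 in TMM-normalized CPM, which are counts scaled to library size. The log2 fold change in counts was -0.14 (95% interval -0.49 to 0.22).

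Mrc1 (chromosome 2, 14229392 to 14332057; it contains the microRNA gene Mir511) encodes the mannose receptor. It ranged from 3.51 to 5.94 TPM in WT mice, median 4.75, and from 3.43 to 6.03 TPM in WWP2Mut/Mut mice, median 4.51. Its log2 fold change in counts was -0.15 (95% interval -0.42 to 0.12). The number of reads behind 1 TPM of Mrc1 varied 1.95-fold between mice, beside a median of 1.09-fold over the 4787 genes with at least 5 TPM in every mouse. Among the markers only Cd68, at 1.45-fold, and Cd163, at 1.25-fold, also exceeded 1.2-fold. Over mice, log2 TPM and log2 CPM (counts scaled to library size) of Mrc1 had r = 0.63, and those of Csf1r, whose reads behind 1 TPM varied 1.02-fold, had the same value.

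Timd4 (chromosome 11, 46810800 to 46844332) encodes a phosphatidylserine receptor that binds dying cells. It was low in every mouse, with 42 to 85 counts. Its lowest, median and highest values were 0.57, 0.68 and 0.93 TPM in WT mice and 0.54, 0.69 and 0.98 TPM in WWP2Mut/Mut mice, nearly the same range. The log2 fold change in counts was 0.09 (95% interval -0.27 to 0.44).

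The 2 most abundant markers also overlapped between the genotypes. C1qa (chromosome 4, 136895917 to 136898803) ranged from 46.09 to 67.51 TPM in WT mice, median 59.73, and from 45.71 to 64.98 TPM in WWP2Mut/Mut mice, median 56.21, with a log2 fold change in counts of 0.16 (95% interval -0.17 to 0.48). Lyz2 (chromosome 10, 117277331 to 117282321) ranged from 105.95 to 229.60 TPM in WT mice, median 177.56, and from 108.29 to 191.35 TPM in WWP2Mut/Mut mice, median 151.71, with a log2 fold change in counts of 0.02 (95% interval -0.29 to 0.33). The 3 highest Lyz2 values were from WT mice. Lyz2 has a close paralog, Lyz1, whose mean was 0.928 TPM, and how many reads could belong to either gene was not measured.

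**Figure D2:**
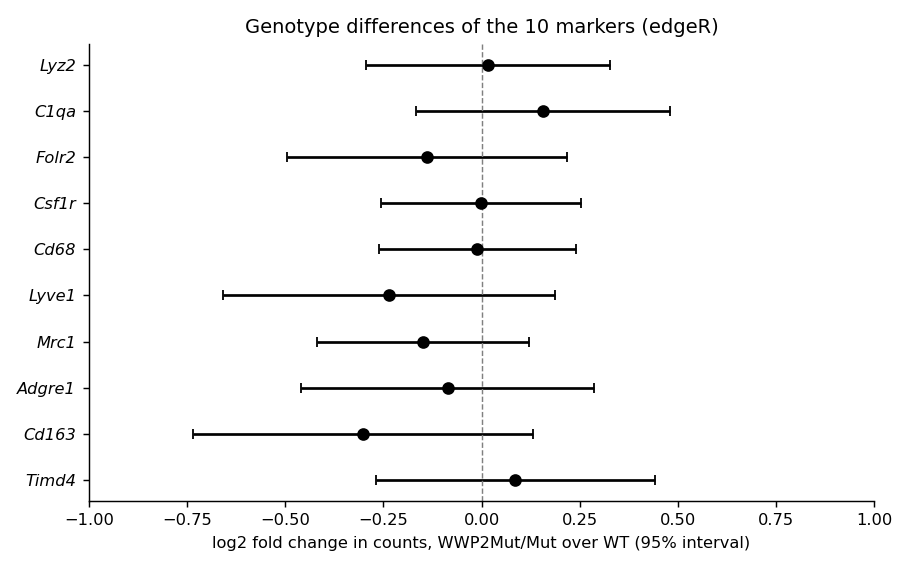
Log2 fold change in counts, WWP2Mut/Mut over WT (horizontal axis), of the 10 markers from edgeR with RNA concentration and lane as covariates; bars are 95% intervals. Every interval includes 0, and those of Cd163 and Lyve1 reach furthest below it.

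The makeup of the marker signal was compared by the ratio of each marker to Csf1r in the same mouse, which cancels a change shared by all macrophages. None of the 9 ratios differed by the two-sided exact permutation test. The smallest p was that of Folr2, whose log2 ratio to Csf1r was 0.50 ± 0.20 in WT mice and 0.38 ± 0.20 in WWP2Mut/Mut mice (SD, n = 9, exact permutation p = 0.201). The log2 ratio of Timd4 was -3.73 ± 0.32 and -3.61 ± 0.16 (exact permutation p = 0.316), and that of Lyve1 was -0.98 ± 0.50 and -1.13 ± 0.44 (exact permutation p = 0.495).

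The markers varied together over mice to unequal degrees. All 45 pairs had a positive correlation of log2(TPM + 1) over 18 mice (median r = 0.485), and 17 had a permutation p under 0.05 after Benjamini-Hochberg adjustment over the 45 pairs. Without the 2 farthest mice, 9 of these 17 kept an r above 0.5. Genes in general also varied together in this unit: over all pairs of the 11326 genes with a mean of at least 1 TPM and an annotated transcript length, 69.1% had a positive r (median 0.296). Lyve1 and Cd163 were the most alike (r = 0.83, rho = 0.82, adjusted permutation p = 0.0009 for r and 0.00135 for rho, raw p = 2e-05 and 9e-05). Their r was 0.72 without the 2 mice farthest from the Lyve1 median and 0.82 after genotype, lane and RNA concentration were removed. Adgre1 and Lyz2 followed (r = 0.81, rho = 0.80, adjusted permutation p = 0.0009, and r = 0.69 without 2 mice).

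C1qa, Folr2 and Lyz2 were correlated with each other and with further markers. C1qa and Lyz2 gave r = 0.75 and rho = 0.74 (adjusted permutation p = 0.00342 for r), C1qa and Folr2 gave r = 0.65 and rho = 0.63 (adjusted permutation p = 0.0248), and Folr2 and Lyz2 gave r = 0.68 and rho = 0.69 (adjusted permutation p = 0.0148). Folr2 was most like Csf1r (r = 0.73, rho = 0.80, adjusted permutation p = 0.00342), and C1qa also went with Cd68 (r = 0.60, rho = 0.62, adjusted permutation p = 0.0328, but r = 0.34 without 2 mice). C1qa and Lyve1, by contrast, gave r = 0.02 and rho = 0.02 (adjusted permutation p = 0.934), and Mrc1 and Lyve1 gave r = 0.03 and rho = 0.06 (adjusted permutation p = 0.92). The value of Mrc1 with Lyve1 differed between units, and r was 0.48 in TMM-normalized log2 CPM (rho = 0.33, adjusted permutation p = 0.152). That of Mrc1 with Adgre1 went from r = 0.12 in TPM to 0.65 in CPM (rho = 0.65, adjusted permutation p = 0.0339 for r and 0.066 for rho). With TMM-normalized log2 CPM, which is not divided by transcript length, in place of TPM, 39 of 45 pairs had a positive r, the lowest being -0.33 for Lyve1 and C1qa, and the median r over all gene pairs was 0.00. By r, 6 of 45 pairs had an adjusted permutation p under 0.05, Lyve1 with Cd163 (r = 0.81), Csf1r with Folr2 (r = 0.71), C1qa with Folr2 (r = 0.74) and C1qa with Lyz2 (r = 0.69) among them. By rho only C1qa with Folr2 and Folr2 with Lyz2 passed (adjusted permutation p = 0.0281 each), and Lyve1 with Cd163 had rho = 0.61 (adjusted permutation p = 0.066). Adgre1 and Lyz2 no longer passed in CPM (r = 0.58, rho = 0.58, adjusted permutation p = 0.0681 for r and 0.0834 for rho).

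**Figure D3:**
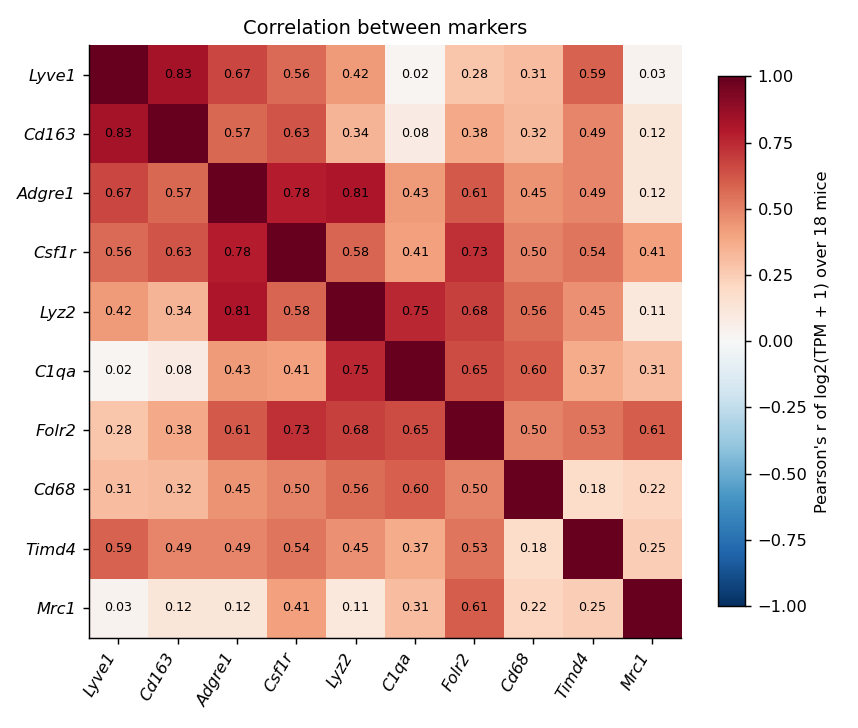
Pearson's r of log2(TPM + 1) over 18 mice for each pair of the 10 markers (rows and columns); colour runs from blue (-1) to red (1). Lyve1 and Cd163 have the highest value, and C1qa and Mrc1 with Lyve1 are near 0 in this unit.

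A recorded property of the libraries moved with some of these markers. The deposited sample table gives a gene body coverage fraction for each mouse, from 0.0288 to 0.0540, without a definition. Lyve1 was high where this fraction was low (r = -0.80, rho = -0.81, adjusted permutation p = 0.0006 over 10 markers, and r = -0.74 without the 2 mice farthest from the median). So were Adgre1 (r = -0.80, rho = -0.76, adjusted permutation p = 0.0004, r = -0.68 without 2 mice) and Cd163 (r = -0.68, rho = -0.64, adjusted permutation p = 0.00547, r = -0.56 without 2 mice). Lyz2 (r = -0.64, rho = -0.59, adjusted permutation p = 0.0111) and Csf1r (r = -0.53, rho = -0.47, adjusted permutation p = 0.0444) also passed by r, with -0.43 and -0.23 without 2 mice. Timd4 did not (r = -0.51, rho = -0.49, adjusted permutation p = 0.0518). For the first 3 markers the relation had the same sign in each genotype, with r of -0.89 in WT and -0.75 in WWP2Mut/Mut mice for Lyve1, -0.74 and -0.90 for Adgre1, and -0.65 and -0.77 for Cd163.

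For C1qa the relation was weak in TPM (r = -0.12, rho = -0.07, adjusted permutation p = 0.643) and positive in TMM-normalized CPM (r = 0.55, rho = 0.66, adjusted permutation p = 0.0448). Lyve1, Adgre1 and Cd163 kept their sign in CPM (r = -0.58, -0.62 and -0.56, adjusted permutation p = 0.0448 each). Of these markers only Adgre1 passed by rho there (rho = -0.61, adjusted permutation p = 0.0426), with an adjusted permutation p of 0.0774 for Lyve1 (rho = -0.54) and 0.137 for Cd163 (rho = -0.46). C1qa passed by rho as well (adjusted permutation p = 0.0367). Among the same 11326 genes, 75.0% had a negative r of TPM with the fraction (median -0.60). By the longest annotated transcript of a gene, the median was -0.04 under 2000 bases (2965 genes), -0.66 at 2000 to 4000 bases (4451 genes) and -0.75 over 4000 bases (3910 genes). In TMM-normalized CPM the same classes had medians of 0.54, -0.11 and -0.51. The longest annotated transcript is 2893 bases for Lyve1, 3238 for Adgre1, 4443 for Cd163 and 1040 for C1qa. When the fraction was removed from both markers of a pair, 42 of 45 pairs had a positive r, beside 70.5% of all gene pairs. The r between Lyve1 and Cd163 was then 0.67 (adjusted permutation p = 0.0137), with 0.45 without 2 mice, and its rho of 0.57 did not pass (adjusted permutation p = 0.0545). That between Mrc1 and Lyve1 was 0.51 (rho = 0.38, adjusted permutation p = 0.0892), and that between C1qa and Lyz2 was 0.89 (rho = 0.91, adjusted permutation p = 0.0009). Other pairs lost most of their r: that between Adgre1 and Lyve1 went from 0.67 to 0.08, that between Adgre1 and Cd163 from 0.57 to 0.07, and that between Lyve1 and Lyz2 from 0.42 to -0.19. The part of RNA quality in the marker levels was not tested beyond these values.

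**Figure D4:**
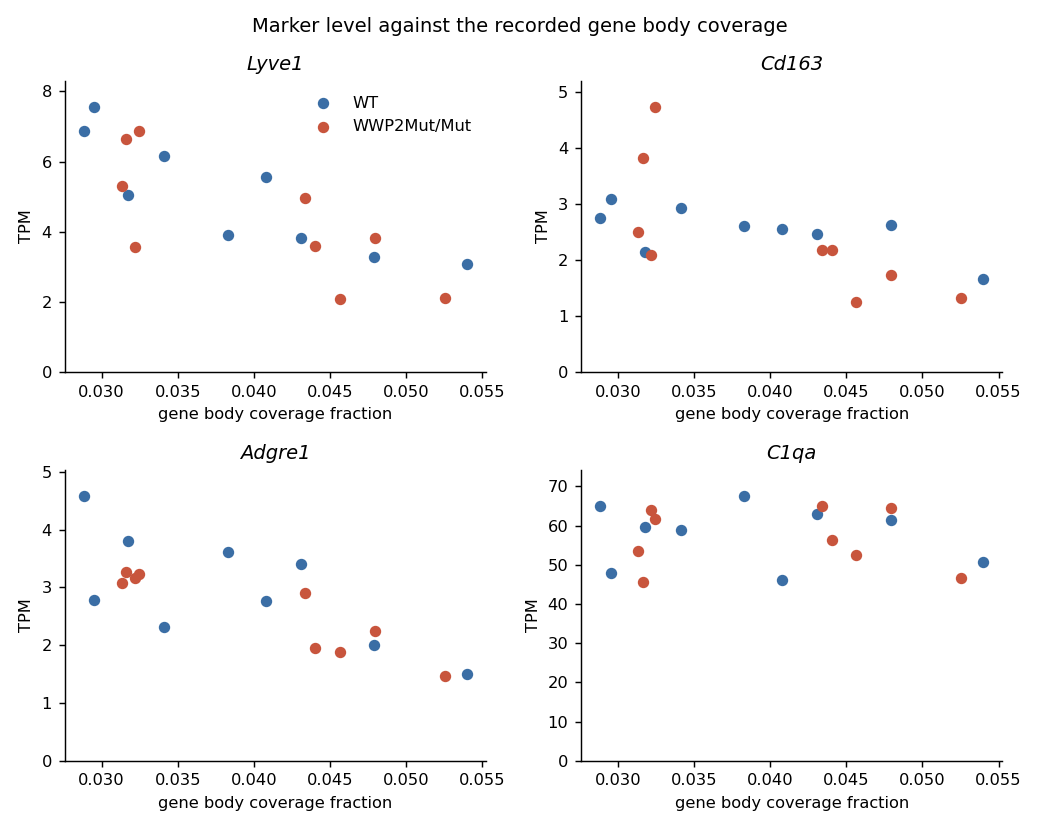
TPM of Lyve1, Cd163, Adgre1 and C1qa (vertical axes, from 0) against the recorded gene body coverage fraction (horizontal axes). Each point is a mouse, coloured by genotype. The first 3 fall as the fraction rises, in both genotypes, and C1qa does not follow it.

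The genes most like 3 of the markers were taken by Pearson's r of log2(TPM + 1) over 18 mice, among the 11327 genes outside the 10 markers that had a mean of at least 1 TPM, with or without an annotated transcript length. For Csf1r they were Ace (r = 0.94), the gene of angiotensin-converting enzyme, Vat1 (0.90), Gltp (0.89), the collagen chain gene Col5a1 (0.88) and Itm2c (0.88). For Lyve1 they were the transcription factor gene Klf13 (0.96), the endothelial junction gene Jcad (0.95), Man2a1 (0.95), Cmip (0.95) and the zinc exporter gene Slc30a1 (0.95), none of them on the macrophage lists. The 5 genes like Lyve1 had r between -0.86 and -0.79 with the gene body coverage fraction. For Timd4 they were the chemokine receptor gene Cxcr4 (0.76), Pik3c2a (0.74), Cited2 (0.73), Fam102b (0.73) and Fkbp7 (0.72). These values share the libraries and their quality, and carry no test.

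Since Lyve1 is also a lymphatic marker, it was set beside 6 genes of lymphatic endothelium. Over all gene pairs the median r was 0.296, and 0.199 with the gene body coverage fraction removed. The lymphatic growth factor receptor Flt4, named for its role, followed Lyve1 closely (r = 0.82, rho = 0.90, adjusted permutation p = 0.00018 over 18 relations, r = 0.82 without 2 mice, and r = 0.70 with the gene body coverage fraction removed). The lymphatic transcription factor Prox1, which cardiomyocytes also express, gave r = 0.72 and rho = 0.76 (adjusted permutation p = 0.00364), and r = 0.15 with the fraction removed. Mmrn1, which encodes a lymphatic matrix protein, gave r = 0.76 and rho = 0.78 (adjusted permutation p = 0.00288) and r = 0.55 with the fraction removed. The surface protein gene Pdpn gave r = 0.66 and rho = 0.67 (adjusted permutation p = 0.00975) and 0.54 with it removed, and the reelin gene Reln gave r = 0.63 and rho = 0.72 (adjusted permutation p = 0.0101) and 0.60 with it removed. The lymphatic chemokine Ccl21a, the most abundant of the 6 at 40.3 TPM, gave r = 0.31 and rho = 0.33 (adjusted permutation p = 0.221). Cd163, which lymphatic endothelium is not known for, also went with Flt4 (r = 0.74, rho = 0.76, adjusted permutation p = 0.0036), Mmrn1 (r = 0.64), Pdpn (r = 0.57), Reln (r = 0.54) and Prox1 (r = 0.50). With the fraction removed these were 0.56, 0.38, 0.40, 0.43 and -0.16. Csf1r went with Pdpn (r = 0.71, rho = 0.77, adjusted permutation p = 0.0036), above the value of Lyve1, and with Mmrn1 (r = 0.63), Flt4 (r = 0.62) and Prox1 (r = 0.53). With the fraction removed these were 0.61, 0.45, 0.43 and 0.18, and Csf1r with Flt4 was 0.40 without 2 mice. None of the 6 genes was called between the genotypes, Mmrn1 having the smallest p (log2 fold change -0.64, edgeR adjusted p = 1.00, and -0.19 with genotype alone), and the share of Lyve1 that came from lymphatic endothelium was not tested.

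PU.1, the lineage factor of macrophages, and MAF factors, which act in resident cells, bind short motifs in the promoters of macrophage genes. RefSeq windows of 300 bases around the gene start (build GRCm38.p6) were searched for 6 markers, Cd68, Timd4, Mrc1, Folr2 (2 starts), Cd163 and Lyz2. The PU.1 core GAGGAA, on either strand, was in the windows of 2 of these 6, Cd68 and Mrc1. It was in those of 8446 of 27025 genes, and in 28.3% of all 32851 windows. The longer PU.1 motif GAGGAAGT, which contains that core, was in 0 of the 6, in 997 of 27025 genes and in 3.20% of all windows. The MAF site TGCTGAC was in 1 of the 6, Timd4, in 1426 of 27025 genes and in 4.67% of all windows. The 250 bases before the start are shown for these 3 genes because they hold a match; capitals mark the PU.1 core or MAF site on either strand. Mrc1 had 3 PU.1 core matches, at -180, -167 and -35 from the start, and Cd68 had 1 at -225 and 1 at 30, past the stretch shown. A match describes letters only.
Cd68, chr11:69666171-69666420, minus strand: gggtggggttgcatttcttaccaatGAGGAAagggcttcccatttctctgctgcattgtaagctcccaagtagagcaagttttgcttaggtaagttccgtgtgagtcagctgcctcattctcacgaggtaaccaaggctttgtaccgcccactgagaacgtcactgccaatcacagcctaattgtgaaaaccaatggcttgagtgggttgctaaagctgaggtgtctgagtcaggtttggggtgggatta
Mrc1, chr2:14229164-14229413, plus strand: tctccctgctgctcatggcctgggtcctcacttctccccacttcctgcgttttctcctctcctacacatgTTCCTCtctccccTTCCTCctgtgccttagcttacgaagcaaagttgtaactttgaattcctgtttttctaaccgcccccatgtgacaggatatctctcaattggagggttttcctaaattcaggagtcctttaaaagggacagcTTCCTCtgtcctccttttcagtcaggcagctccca
Timd4, chr11:46810549-46810798, plus strand: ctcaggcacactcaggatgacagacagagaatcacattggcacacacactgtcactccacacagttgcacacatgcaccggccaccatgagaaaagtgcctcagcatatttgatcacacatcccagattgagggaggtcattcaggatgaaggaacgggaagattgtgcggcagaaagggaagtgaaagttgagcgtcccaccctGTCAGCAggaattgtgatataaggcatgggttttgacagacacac

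Other genes of the pathway were examined as lists, and none of their genes was called. Bulk libraries do not show which cells of the ventricle made these transcripts, and this was not tested. In the list of 18 further macrophage genes, 16 had a log2 fold change above 0 and 2 below, with a median of 0.09. Its most abundant genes were those of the other C1q chains, C1qb at 58.7 TPM (log2 fold change 0.17) and C1qc at 46.5 TPM (0.13). The smallest p was that of Mpeg1, the gene of perforin-2 (0.30, edgeR adjusted p = 1.00). In TPM the split turned, with a lower mean in WWP2Mut/Mut mice for 14 of the 18 genes, beside 75.4% of all 24804 genes. The list summed to 159 to 260 TPM in WT mice (median 215) and 167 to 238 TPM in WWP2Mut/Mut mice (median 199).

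In the list of 16 further resident macrophage genes, 12 were below 0 and 4 above, with a median of -0.08. With genotype alone, 8 were below 0 and 8 above (median -0.01), so the split depended on the covariates. Gas6, a ligand that bridges dying cells to their receptors, was the most abundant at 44.9 TPM (log2 fold change -0.02), followed by the platelet factor gene Pf4 at 26.3 TPM (0.02). The transcription factor gene Maf had the smallest p (-0.24, edgeR adjusted p = 1.00, and -0.07 with genotype alone). With the summed hepatocyte transcripts as a further covariate it was -0.37 (edgeR adjusted p = 0.736). Over all genes, 51.9% of log2 fold changes were below 0.

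Genes of recruited monocytes and inflammatory macrophages had means of at most 4.57 TPM, and the markers Adgre1, Cd163 and Timd4 also lay below that level. Ccr2, named for its role, encodes the receptor that draws monocytes out of the blood. It was 0.20 to 1.18 TPM in WT mice and 0.25 to 1.12 TPM in WWP2Mut/Mut mice. Ccr2 was below Csf1r in every mouse, and so was the resident marker Timd4. The share of recruited cells was not tested. Of 18 genes in this list, 12 had a log2 fold change below 0 and 6 above (median -0.11). The lectin gene Lgals3, the most abundant at 4.57 TPM, had a log2 fold change of 0.29 (0.13 with genotype alone), and the chemokine gene Ccl12, at 3.33 TPM, one of -0.19. That of Ccl12 was -0.09 with lane and genotype and -0.60 with the summed hepatocyte transcripts as a further covariate. Ccl2, which encodes the ligand of Ccr2 and was singled out after its values were seen, was 1.59 to 6.13 TPM in WT mice, median 3.21, and 1.21 to 2.81 TPM in WWP2Mut/Mut mice, median 1.95. Its log2 fold change was -0.50 (95% interval -0.87 to -0.13, edgeR adjusted p = 0.991), so it did not pass.

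The smallest p of that list was that of Arg1 (log2 fold change -2.63, edgeR adjusted p = 0.858), an enzyme gene of inflammatory macrophages that hepatocytes express strongly. Arg1 was 0 to 6.00 TPM in WT mice and 0.03 to 0.46 TPM in WWP2Mut/Mut mice. It followed the summed level of the 12 hepatocyte genes (r = 0.85, rho = 0.96, adjusted permutation p = 0.00017 over 17 relations, r = 0.92 without 2 mice). With that sum as a further covariate, the log2 fold change of Arg1 was -0.17. All 12 hepatocyte genes had a log2 fold change below 0, from -2.68 to -1.35, and 12 of 12 had an unadjusted p under 0.05, against 7 of 12 by DESeq2 and 10 of 12 in edgeR with genotype alone. The most abundant were those of albumin (Alb, -1.91) and the apolipoprotein gene Apoa2 (-1.35), and Ahsg, the gene of fetuin-A, had the smallest p (-1.55, edgeR adjusted p = 0.837). None of the 10 markers had an adjusted p under 0.05 for its relation to that sum, the most negative being Lyz2 (r = -0.47, rho = -0.41) and C1qa (r = -0.47, rho = -0.38), each with an adjusted permutation p of 0.159 and r = -0.28 and -0.29 without 2 mice. Of 4 genes that mark liver macrophages, Clec4f was at most 0.49 TPM, Cd5l at most 0.21 TPM and Marco at most 0.19 TPM in any mouse, while Vsig4, which is also on the resident list, reached 1.24 TPM.

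**Figure D5:**
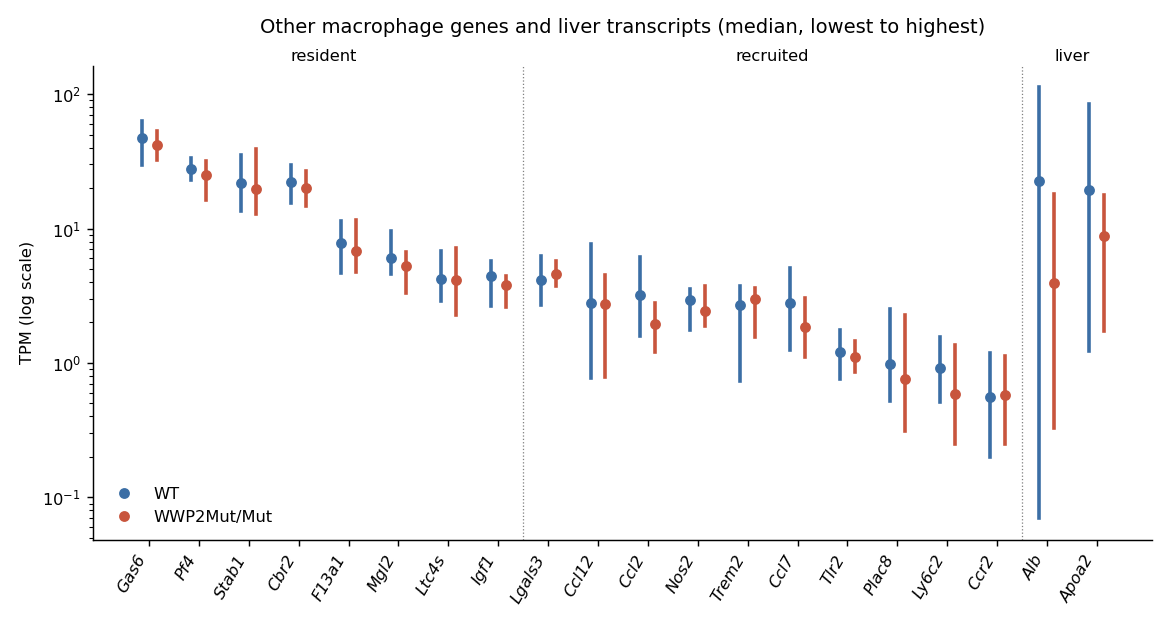
TPM on a log scale (vertical axis) of the 8 most abundant genes of the resident and of the recruited list, Ly6c2 and Ccr2, and of the liver transcripts Alb and Apoa2. Points are medians and lines run from the lowest to the highest of 9 mice per genotype. Ccr2 and Ly6c2 were added to genes chosen as the most abundant, so their low place in the plot follows from that choice. Alb spans the widest range.

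Among ligands and lineage factors, Csf1 was the most abundant at 11.7 TPM, from 10.30 to 15.94 TPM in WT mice and from 7.74 to 14.60 TPM in WWP2Mut/Mut mice. Its log2 fold change was -0.25 (95% interval -0.49 to -0.00, edgeR adjusted p = 1.00) and -0.17 with genotype alone. With the hepatocyte sum as a further covariate it was -0.39 (edgeR adjusted p = 0.736). The nuclear receptor gene Nr4a1, which acts in patrolling monocytes, was next at 10.6 TPM with a log2 fold change of 0.07 (-0.01 with genotype alone, and 1.24 with the hepatocyte sum as a further covariate, edgeR adjusted p = 0.736). Named for their roles, Il34, the other ligand of Csf1r, was 3.16 TPM with a log2 fold change of 0.13, and Spi1, which encodes PU.1, was 3.11 TPM with one of 0.07. Of 14 genes in this list, 13 were tested, with 9 above 0 and 4 below; Csf2, with the smallest p, had at most 1 count in any mouse. Of 12 scavenger and phagocytic receptor genes, 7 were below 0 and 5 above. The fatty acid receptor gene Cd36, at 381 TPM, had a log2 fold change of -0.11, and Axl, at 15.6 TPM, one of -0.11, and with genotype alone these were -0.00 and -0.03. Cd5l had the smallest p of this list (-2.34, edgeR adjusted p = 0.837) at no more than 0.21 TPM in any mouse. Its r with the summed hepatocyte genes was 0.53 (rho = 0.43, adjusted permutation p = 0.0951) and 0.20 without 2 mice, and with that sum as a further covariate its log2 fold change was -1.86.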

How the data were processed

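The authors aligned reads to mouse genome m38 with STAR 2.5.2b, estimated gene levels with RSEM 1.2.31 (Ensembl annotation) and left out genes of mitochondria and of rRNA. The authors deposited expected counts per gene and TPM of the same genes, whose sum was 671770 to 826381 per mouse, and a sample table with RNA concentration, lane and a gene body coverage fraction deposited without a definition. Symbols and coordinates are from GENCODE M21 (GRCm38); 51242 of 51435 identifiers had a symbol.

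Expected counts, rounded, were tested with edgeR 4.0.16 (TMM, glmQLFit, glmQLFTest) under R 4.3.3 over the 24804 genes whose counts summed to above 1, with RNA concentration and lane as covariates, and adjusted by Benjamini-Hochberg. DESeq2 1.42.0, limma 3.58.1 and other settings were alternatives. Single values were compared by two-sided exact permutation over 48620 divisions of 18 mice, and correlations by two-sided tests with 100000 permutations (scipy 1.17.1). Genotypes came from the labels, and mice are separate animals whose pairs differed by more than sampling noise. The scripts were tested on simulated data. Named genes were the 10 markers, Wwp2, from each other list described in full the 2 most abundant and the one with the smallest p, and for Csf1r, Lyve1 and Timd4 the 5 genes most like each; genes outside this rule were named for their role, as library checks or where marked. The markers and lists were chosen with earlier results of these data known.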

Additional observations from a re-analysis of the deposited data

How the results depend on the processing

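None of the 10 markers was called in any of the edgeR, DESeq2 and limma alternatives or with any mouse left out, and no gene of the other lists was called by DESeq2 or with genotype alone. These fits called few genes of any kind, from 0 to 2 of all genes tested. Without the 5 mice with atrial transcripts, Wwp2 itself was not called (edgeR adjusted p = 0.204). Most fitted differences were near 0, and the sign of some turned, never with an adjusted p under 0.05. With genotype alone the log2 fold changes became 0.019 (Csf1r), 0.021 (Cd68), 0.0041 (Mrc1), 0.060 (Cd163) and -0.016 (Lyz2), and with lane and genotype 0.017 (Csf1r), 0.029 (Cd68), 0.051 (Cd163) and -0.018 (Lyz2). Upper-quartile factors gave 0.017 (Csf1r) and 0.011 (Cd68), and the hepatocyte sum as covariate 0.0028 (Csf1r) and -0.016 (Lyz2). Without the 5 mice with atrial transcripts, chosen after seeing the data, the values were 0.075 (Csf1r) and -0.12 (Lyz2). In limma they were -0.033 (Timd4), -0.0016 (C1qa) and -0.13 (Lyz2) on log2(TPM + 1), and -0.067, -0.0016 and -0.13 on log2(TPM + 0.1). All 10 were below 0 in both limma fits, where the median of all genes was -0.04 and -0.11. With 1 mouse left out, the log2 fold change ran from -0.082 to 0.040 for Csf1r, -0.11 to 0.037 for Cd68, -0.18 to 0.025 for Adgre1 and -0.095 to 0.093 for Lyz2. The sign held but the size moved for Folr2 (-0.23 to -0.048), Mrc1 (-0.22 to -0.076), Timd4 (0.011 to 0.14) and C1qa (0.061 to 0.22). Cd163 had an unadjusted p under 0.05 with the hepatocyte sum as covariate (log2 fold change -0.52) and without WWP2Mut/Mut 33-1 (-0.43). With each mouse left out in turn, the value of Cd163 ran from -0.43 to -0.18. The cause of these changes was not tested.

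In exact tests, TMM-normalized CPM turned the differences of Csf1r (0.650), Cd68 (0.138), Mrc1 (0.0714), Cd163 (0.497) and C1qa (5.02), and rescaled TPM that of C1qa (0.0415). With Cd68 as denominator the log2 ratio differences were 0.0031 (Adgre1), 0.068 (Mrc1), 0.013 (Cd163) and 0.045 (Lyz2), and without the 5 mice 0.015 (Mrc1) and -0.054 (C1qa). With 1 mouse left out they ran from -0.075 to 0.076 for Mrc1, -0.15 to 0.012 for Cd163 and -0.13 to 0.0053 for Lyz2. Of 45 pairs, 6 were correlated at an adjusted p under 0.05 in TMM-normalized CPM and 32 in rescaled TPM, an alternative added after seeing the data, against 17. In TMM-normalized CPM, added likewise, r with the gene body coverage fraction was 0.19 (Csf1r), 0.088 (Cd68), 0.13 (Timd4), -0.36 (Mrc1), 0.39 (Folr2), 0.55 (C1qa) and, no longer past the threshold, -0.11 (Lyz2). Timd4 rested on the fewest counts of the markers, at most 85 in a mouse. No paired analysis was possible because no mouse number occurs in both genotypes and the labels do not record which mice were littermates.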
